A study of Mus musculus with 24 samples.

Results

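Gata4, Gata6, Sox17, Sox7, Foxa1, Foxa2 and Hnf4a, 7 regulators of endoderm, were followed through lists of ChIP-seq peaks (chromatin immunoprecipitation followed by sequencing) from mouse embryonic stem cells. Every peak whose midpoint lay inside the mm10 span of a gene or within 20 kb of either end, called its window here, was taken. This gave 35 peaks of the 246925 in 16 lists, 14 of Klf4, 3 of Oct4, 0 of Sox2 and 18 of H3K27ac (histone H3 acetylated at lysine 27, a mark of active promoters and enhancers). The 7 genes were chosen out of 21887 protein-coding genes of the annotation.

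All cells were of V6.5, an embryonic stem cell line of C57BL/6-129 strain, grown on irradiated feeders in serum with LIF and then on gelatin with inhibitors of MEK1 (PD98059) and Gsk3 (Chir99021). Asynchronous cells were compared with mitotic cells, which were shaken off after 7 h in nocodazole, a drug that blocks the spindle, at a labelled 100 ug/ml. Klf4 had 3 asynchronous and 3 mitotic lists, Oct4 and Sox2 had 1 and 2 each, and H3K27ac had 2 and 2. A Klf4 list from a mix with neural progenitors was left out, and 7 inputs had no list. The labels do not say whether libraries of a group came from separate cultures, so p-values measure only the spread between these libraries, which may be technical.

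Gata6 and Gata4 are zinc finger factors. With Sox17 and Sox7, which are F-group Sox factors, they belong to the program of primitive endoderm, the extraembryonic lineage that segregates from the epiblast when Fgf signals reach the inner cell mass. Foxa1 and Foxa2 are forkhead factors that can open closed chromatin and act in definitive endoderm, and Hnf4a is a nuclear receptor of visceral endoderm and liver. In naive stem cells these genes are largely silent while Klf4, Oct4 and Sox2 hold the pluripotent state.

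The lists held 3795 to 21307 peaks for Klf4, 1246 to 5282 for Oct4, 1940 to 4537 for Sox2 and 30771 to 47475 for H3K27ac. Read depth was not given, so a window without a listed peak is not shown to be unbound. All 8 marker genes of pluripotent stem cells had an H3K27ac region in both states. Of 7 markers of feeder fibroblasts 4 had an asynchronous and 2 a mitotic H3K27ac peak. Of 7 expressed products of differentiated endoderm, 5 and 2 did, and of 5 markers of neural progenitors 5 and 3. Over all protein-coding genes the shares were 74.5% and 71.3%.

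Promoter sequences from RefSeq (GRCm38.p6) could be matched for 3 of the 7 genes, Foxa1, Foxa2 and Hnf4a, and are shown because they place the peaks described for these genes against their start sites. Each is the 250 bases before a start, on the strand of the gene. They were searched on both strands, and capitals mark a match. The letters AGATAA stood for the motif that Gata factors bind. The letters TGTTTAC stood for the forkhead motif of the Foxa genes' products. For the antibodies' own factors, GGGNGTGG was taken as the Klf motif, ATGCAAAT as the octamer of Oct4, and for Sox factors the letters CATTGT were used.
Foxa1, chr12:57546112-57546361, minus strand: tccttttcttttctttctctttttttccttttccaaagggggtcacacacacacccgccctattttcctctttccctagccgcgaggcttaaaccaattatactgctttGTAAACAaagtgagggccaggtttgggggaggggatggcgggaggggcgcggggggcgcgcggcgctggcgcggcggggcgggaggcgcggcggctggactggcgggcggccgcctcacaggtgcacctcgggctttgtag
Foxa2, the outermost of 3 starts in the table, chr2:148046970-148047219, minus strand: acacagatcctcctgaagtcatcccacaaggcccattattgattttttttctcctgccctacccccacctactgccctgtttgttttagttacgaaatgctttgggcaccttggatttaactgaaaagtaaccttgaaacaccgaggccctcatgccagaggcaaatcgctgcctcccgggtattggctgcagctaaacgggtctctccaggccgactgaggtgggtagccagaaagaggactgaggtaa
Hnf4a, first of 2 starts, chr2:163506607-163506856, plus strand: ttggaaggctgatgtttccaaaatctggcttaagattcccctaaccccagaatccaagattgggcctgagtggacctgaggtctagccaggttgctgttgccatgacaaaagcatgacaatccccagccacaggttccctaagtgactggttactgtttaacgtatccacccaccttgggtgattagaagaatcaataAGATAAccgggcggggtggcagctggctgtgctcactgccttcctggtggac
The Foxa1 sequence held 1 forkhead match and that of Hnf4a 1 Gata match. Of 27025 promoters of the same length 3.06% held the forkhead motif, 10.2% the Gata motif, 15.9% the Klf motif, 1.62% the octamer and 10.9% the Sox motif. No listed peak of any antibody overlapped these 3 promoters or that of the second Hnf4a start. The nearest peak of the gene's window to the Foxa1 start was 3.38 kb away, in Klf4 asynchronous 1. For the first Hnf4a start it was 3.25 kb away, in Klf4 asynchronous 3.

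At least 1 listed peak lay by 6 of the 7 genes, against 82.5% of all protein-coding genes. The antibodies differed in where they placed these peaks. Klf4 had a peak by 6 of the 7 genes in an asynchronous list (background 66.3%) and by Sox7 alone in a mitotic list (45.1%). Oct4 had one by Sox7 in the asynchronous list (13.6%) and by Sox7 and Gata6 in a mitotic list (18.2%). Sox2 had none by any of the 7 in its asynchronous list (10.9%) or in either mitotic list (15.1%). H3K27ac had one by 5 genes in an asynchronous list (74.5%) and by Gata4, Gata6 and Hnf4a in a mitotic list (71.3%). Windows of longer genes can hold more peaks, and the median span of the 7 genes was 7.40 kb against 17.2 kb over all genes. With so few genes, none of these shares is shown to differ from the background.

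**Figure D1:**
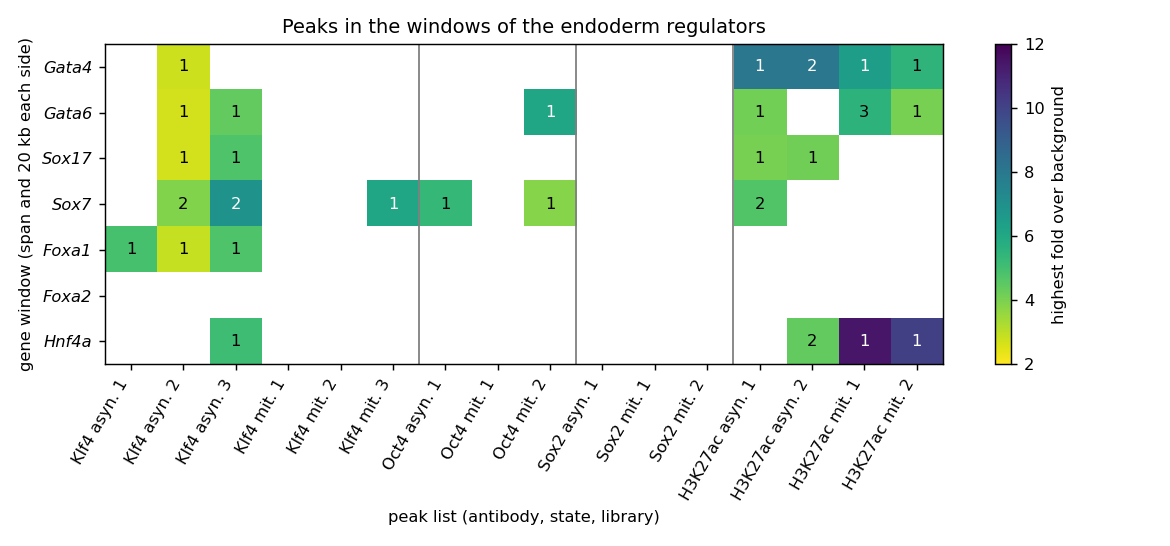
Numbers of listed peaks (digits) in the window of each gene (rows) in each of the 16 lists (columns; asyn., asynchronous; mit., mitotic), coloured by the highest fold over background of a peak there; an empty cell has no listed peak. Foxa2 and the 3 Sox2 lists are empty, and the highest folds, 11.4 and 10.1, are those of Hnf4a in H3K27ac mitotic 1 and mitotic 2.

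Peaks overlapping by at least 1 bp, of any antibody, formed 20 separate elements across the windows. Of these, 11 came from a single list, 13 from asynchronous lists alone, 4 from mitotic lists alone and 3 from both states. Only 2 elements held more than 1 antibody, both Klf4 with H3K27ac and both by Sox7. The same shares over all elements of the genome are not given here, so these counts only describe the windows. The fold over background that the authors give each peak ran from 2.69 to 11.4. Most peaks were weak for their list: 24 of 35 lay below the median of their own list by the authors' −log10 p. A −log10 q of at least 5 was reached by 12, and the share of all listed peaks that reach it is not given here. The median percentile by −log10 p was 19.9 for the 13 asynchronous Klf4 peaks and 13.6 for the 10 asynchronous H3K27ac peaks. It was 58.5 for the 8 mitotic H3K27ac peaks.

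The share of the windows' bases under a peak also differed between antibodies. H3K27ac covered 0.636% and 0.529% of the 477.0 kb of windows in the asynchronous lists, against 3.05% and 2.86% of the windows of all protein-coding genes. In the mitotic lists it covered 1.28% and 1.10%, against 2.23% and 2.13%. All 4 H3K27ac values for the 7 genes were thus below those for all genes. Asynchronous Klf4 covered 0.0365%, 0.249% and 0.360%, against 0.156%, 0.377% and 0.381%. Mitotic Klf4 covered 0%, 0% and 0.109%, against 0.113%, 0.0420% and 0.195%. All 6 Klf4 values were thus also below those for all genes. Oct4 covered 0.0556% in the asynchronous list, against 0.0549%, and 0% and 0.103% in the mitotic lists, against 0.0127% and 0.0799%, so that it lay on either side. Sox2 covered none, against 0.0298% in the asynchronous and 0.0732% and 0.0196% in the mitotic lists. These shares are given without a test.

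For comparison between states, peaks of 1 antibody that shared at least 1 bp were merged into regions. A region belonged to the asynchronous set when at least 2 Klf4, both H3K27ac or the single Oct4 or Sox2 asynchronous list had a peak in it. It was then named kept with peaks in at least 2 mitotic lists, lost with none and intermediate with 1. A mitotic-only region had peaks in at least 2 mitotic lists and no asynchronous one. In alternative runs that leave a state only 1 list, that list suffices in each of these rules.

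Klf4 peaks by the 7 genes numbered 1, 6 and 6 in the asynchronous lists and 0, 0 and 1 in the mitotic lists. The groups met at 1 peak, in asynchronous 1 and mitotic 3, with means of 4.33 ± 2.89 and 0.33 ± 0.58 (SD, n = 3 each). The difference of -4.00 did not pass an exact two-sided permutation test (p = 0.2, adjusted p = 0.9 over 9 tests; the smallest p that 3 against 3 allows is 0.1). Mitotic Klf4 lists were also shorter. Per 10000 listed peaks the values were 0.946, 2.82 and 3.65 in asynchronous and 0, 0 and 1.19 in mitotic lists, which overlapped as well. Their means were 2.47 ± 1.38 and 0.395 ± 0.684 (SD, n = 3 each; difference -2.07, exact permutation p = 0.2, adjusted 0.9). Within project EC-EA-3702, the only one with Klf4 in both states, there were 6 asynchronous peaks and 1 mitotic peak. With −log10 q of at least 5 the difference shrank to -0.33 peaks (exact permutation p = 1). With lists cut to equal length it was 0.33 peaks, in the other direction.

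Of 9 Klf4 regions by the 7 genes, 5 came from a single list, against 45.4% of all Klf4 regions. The asynchronous set held 4, by 3 of the 7 genes (50.6% of all genes), of which 0 were kept, 3 were lost (by Gata6, Sox7 and Foxa1) and 1 was intermediate (by Sox7). Over the genome 26.9% of such regions were kept, 44.0% lost and 29.1% intermediate. By gene, a kept Klf4 region lay by 0 of 7, against 21.9% of all genes, and a lost one by 3 of 7, against 29.5%. No Klf4 region by these genes was mitotic-only. Such regions were rare, at 2.33% of the Klf4 regions in at least 2 mitotic lists and by 0.562% of all genes. The lost count rested on weak peaks, being 0 with −log10 q of at least 5. Each lost region had peaks in 2 asynchronous lists, so leaving either out removes it by the rule. The count was thus 0 without asynchronous 2 and 1, by Foxa1, without asynchronous 3. By the same rule the intermediate region by Sox7 was not so classed without asynchronous 2, asynchronous 3 or mitotic 3.

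Among the GATA factors, Gata4 (chr14:63198914-63271712) had H3K27ac at different places in the states. A lost region at chr14:63193042-63193930, 5.43 kb outside the gene and inside the neighbouring Neil2, a DNA repair glycosylase, had folds of 8.02 and 8.03 in the asynchronous lists and no mitotic peak. A mitotic-only region at chr14:63269050-63270746 lay inside Gata4, 1.81 kb from its upper end. Its folds were 6.40 in mitotic 1 and 5.48 in mitotic 2, over 1451 and 1697 bp. The peaks of both regions had a −log10 q above 5. Another H3K27ac peak inside the gene, of fold 3.92, was listed in asynchronous 2 alone. Klf4 was listed by Gata4 once, inside the gene at chr14:63237265-63237432 in asynchronous 2, with a fold of 2.77. Oct4 and Sox2 were not listed, their nearest peaks being 229 and 187 kb away. A kept Klf4 region and a kept H3K27ac region both lay 20.9 kb from Gata4, just outside the window.

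Gata6 (chr18:11052510-11085636), needed for primitive endoderm to form, was the only member with peaks of 3 antibodies besides Sox7. Its H3K27ac also lay at different places in the states. A mitotic-only region inside the gene, chr18:11078081-11079804, held 2 peaks in mitotic 1, of folds 4.10 and 5.52, and 1 in mitotic 2, of fold 4.04. It was weaker than the one by Gata4 and was no longer mitotic-only with −log10 q of at least 5, since the mitotic 2 peak had 4.25. Mitotic 1 listed a further peak of fold 4.08 at chr18:11081650-11082027. Asynchronous 1 listed one of fold 4.13 at chr18:11054297-11054601, 1.94 kb into the gene, and asynchronous 2 none. Klf4 had a lost region 12.7 kb outside the gene, chr18:11039587-11040012, of folds 2.69 in asynchronous 2 and 4.42 in asynchronous 3. Oct4 had a peak of fold 6.14 in mitotic 2 alone, 17.8 kb outside, chr18:11034547-11034832. The Klf4 and Oct4 peaks of Gata6 therefore lay on 1 side of the gene and the H3K27ac peaks inside it, with none shared.

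Hnf4a (chr2:163506811-163572907) carried the strongest H3K27ac of the 7 genes. The region at chr2:163514920-163517701 lay inside the gene, 9.50 kb from its lower end, where the noncoding gene Hnf4aos overlaps it. Mitotic 1 had a peak of fold 11.4 over 2659 bp and mitotic 2 one of 10.1 over 2331 bp. Asynchronous 2 had 2 narrow peaks there, of folds 4.40 and 3.68 over 357 and 345 bp, and asynchronous 1 had none. Within their lists the mitotic peaks stood at percentiles 91.6 and 86.6 by −log10 p, and the asynchronous ones at 25.9 and 1.91. Because 1 of 2 asynchronous lists had a peak, the region was in no class, and it was mitotic-only with −log10 q of at least 5, with lists of equal length and without asynchronous 2. Without asynchronous 1 it was kept. Klf4 had 1 peak inside Hnf4a, at chr2:163509999-163510208 in asynchronous 3, of fold 5.09. That peak also overlapped Hnf4aos, so a peak there cannot be given to either gene.

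**Figure D2:**
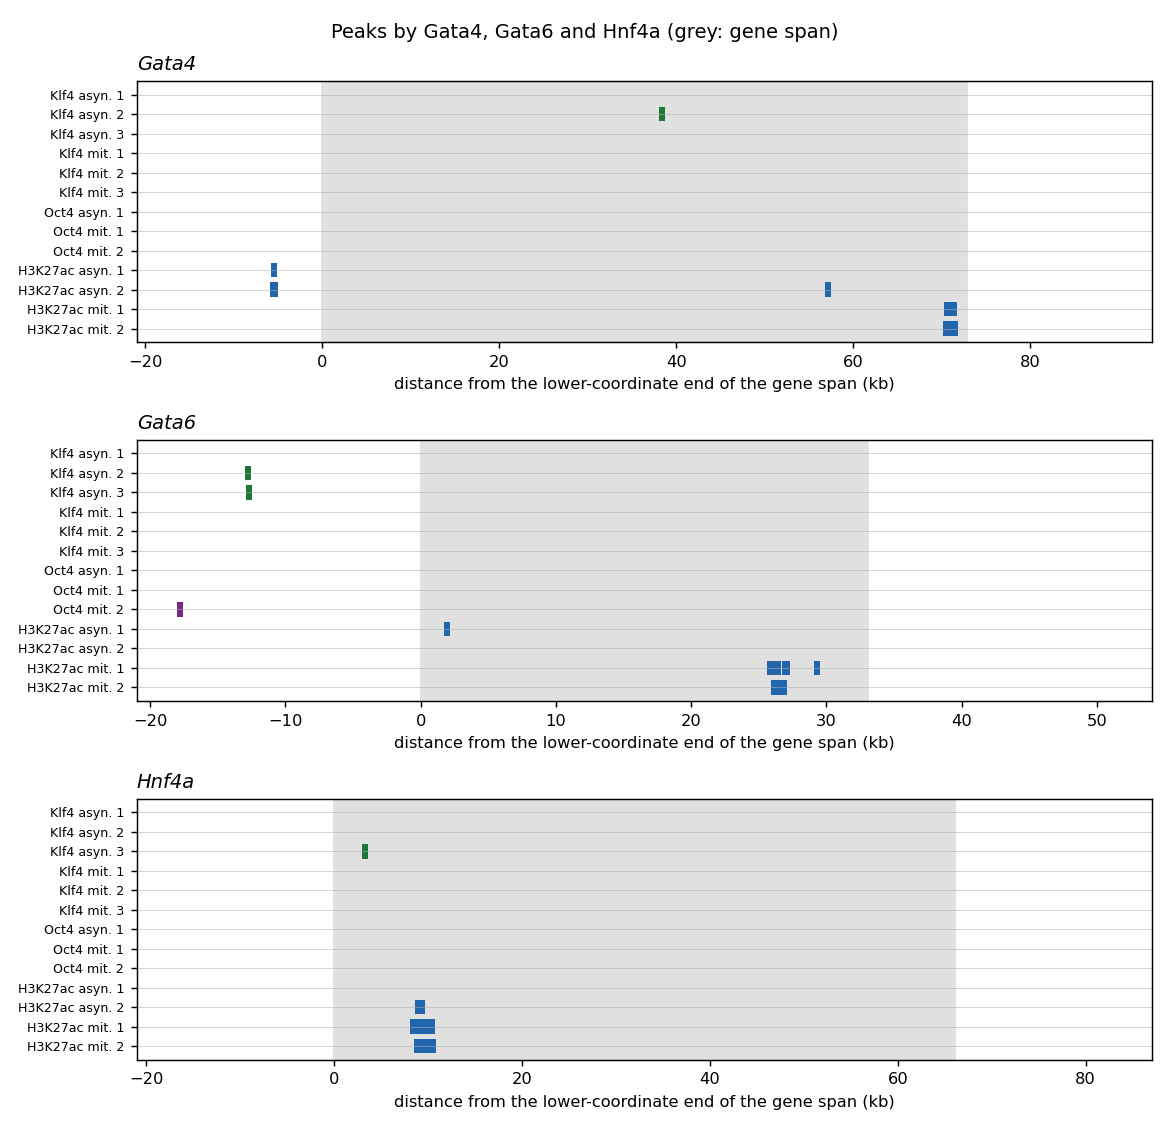
Listed peaks (bars; narrow ones drawn at a minimum width to be seen) by Gata4, Gata6 and Hnf4a in the Klf4, Oct4 and H3K27ac lists, one row a list, by distance in kb from the lower-coordinate end of the gene (grey, gene span). The mitotic H3K27ac regions lie inside each gene, with midpoints 71.0 kb (Gata4), 26.4 and 29.3 kb (Gata6) and 9.50 kb (Hnf4a) from that end, and a peak in the same place is listed in an asynchronous list only for Hnf4a.

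Sox7 (chr14:63943706-63950732), a late marker of primitive endoderm, had peaks of Klf4, Oct4 and H3K27ac, with Klf4 and Oct4 at separate places. Klf4 had an intermediate region 2.59 kb outside the gene, chr14:63940849-63941376. Its folds were 3.90 in asynchronous 2, 6.85 in asynchronous 3 and 6.07 in mitotic 3, at percentiles 64.3, 66.5 and 76.9 of their lists. This was the only place in the windows where Klf4 was listed in mitosis, and all 3 peaks had a −log10 q of at least 5. An H3K27ac peak of fold 4.72 in asynchronous 1 overlapped it, at chr14:63941060-63941440. A lost Klf4 region at chr14:63943365-63943636, 0.205 kb outside the gene, had folds of 2.78 and 4.12 in asynchronous 2 and 3. It lay within an H3K27ac peak of asynchronous 1 that crosses the gene end, chr14:63943063-63944047, of fold 3.76. Asynchronous 2 and both mitotic lists had no H3K27ac by Sox7.

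Oct4 had an intermediate region 7.03 kb outside Sox7, chr14:63936527-63936816. Its folds were 5.33 in the asynchronous list and 3.81 in mitotic 2, with no peak in mitotic 1. It was the only Oct4 region of the asynchronous set by the 7 genes. Over the genome 24.6% of the Oct4 regions of this set were kept, 36.2% lost and 39.3% intermediate. The peak by Gata6 was the single-list region of Oct4, 1 of 2, against 63.3% of all Oct4 regions. Oct4 peaks by the 7 genes numbered 1 in the asynchronous list and 0 and 2 in the mitotic lists, which lie on either side of it. The mean difference was 0 (exact permutation p = 1, smallest possible 0.33 with 1 against 2), and it was 1.00 without mitotic 1 and -1 without mitotic 2. No Sox2 list had a peak by Sox7, and the nearest was 442 kb away.

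Sox17 (chr1:4490928-4497426), a primitive and definitive endoderm factor, had 4 peaks, all asynchronous and each in 1 list. Klf4 was listed 18.9 kb outside the gene in asynchronous 2, at fold 2.70, and over the upper gene end, chr1:4497272-4497550, in asynchronous 3, at fold 4.75. H3K27ac was listed inside the gene in asynchronous 1, at fold 4.04, and 19.3 kb outside it in asynchronous 2, at fold 4.16. The distant Klf4 and H3K27ac peaks, chr1:4471955-4472068 and chr1:4471348-4471862, lay next to each other without overlap. No position by Sox17 was thus repeated between lists, and no mitotic list had a peak there.

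Foxa1 (chr12:57540628-57548029) was marked by Klf4 alone. A lost region 1.53 kb beyond the upper gene end, chr12:57549400-57549728, lay inside the neighbouring gene Ttc6. Its folds were 4.92 in asynchronous 1 and 2.86 in asynchronous 2. It held the only peak that asynchronous 1 had by any of the 7 genes. Asynchronous 3 listed another peak, of fold 4.75, 5.65 kb from the lower end at chr12:57534834-57535119. The nearest H3K27ac peak was 58.0 kb from Foxa1, in asynchronous 1.

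Foxa2 (chr2:148042877-148046969) had no peak in any of the 16 lists. Its nearest H3K27ac peak was 57.9 kb away, in mitotic 1. Its nearest Sox2, Klf4 and Oct4 peaks were 137, 340 and 750 kb away. Both forkhead genes thus lacked H3K27ac within 20 kb in either state, and only Foxa1 had listed Klf4.

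**Figure D3:**
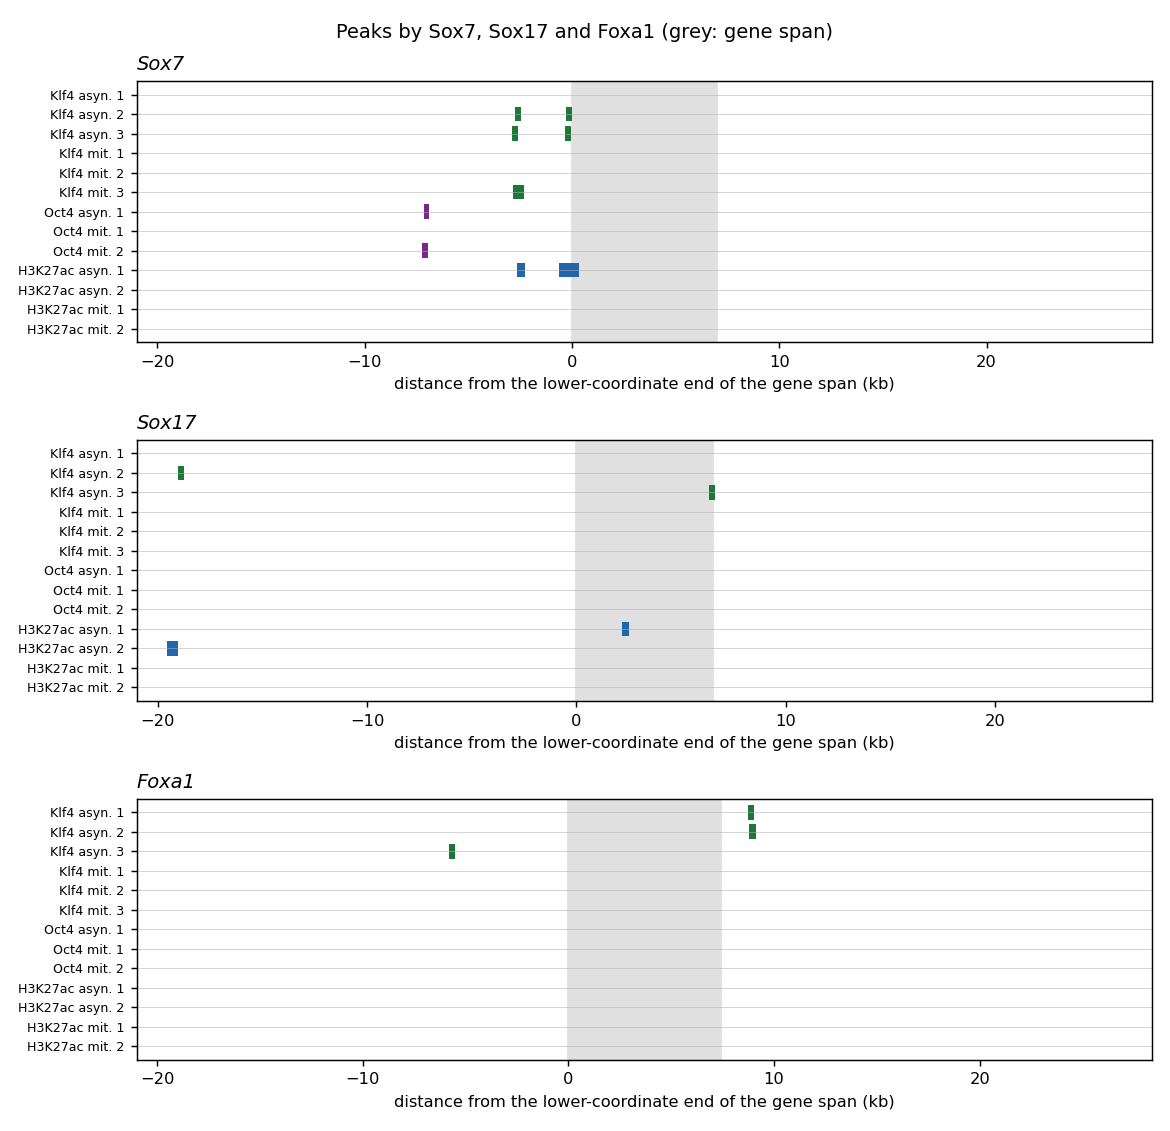
Listed peaks (bars; narrow ones drawn at a minimum width to be seen) by Sox7, Sox17 and Foxa1, one row a list, by distance in kb from the lower-coordinate end of the gene (grey, gene span). Klf4 mitotic 3 and Oct4 mitotic 2 list the only mitotic peaks, both below the lower end of Sox7, at 2.59 and 7.08 kb.

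H3K27ac by the 7 genes was compared between states in number and in length. Peaks numbered 5 and 5 in the asynchronous and 5 and 3 in the mitotic lists, which overlap. The difference of -1 had an exact permutation p of 1 (adjusted 1; smallest possible 0.33 with 2 against 2), and it was -2 without mitotic 1 and 0 without mitotic 2. Per 10000 listed peaks the values were 1.05 and 1.08 against 1.37 and 0.975, a difference of 0.108 (exact permutation p = 1), or -0.0894 without mitotic 1. The direction depended on the processing. The difference in number was 1.00 with −log10 q of at least 5, 3.00 with lists of equal length and 0.500 with windows of 5 kb. Per 10000 listed peaks it was 0.695 with −log10 q of at least 5, 0.975 with equal lists, and 0.428 and 0.852 with windows of 5 and 50 kb. Each of these 4 had an exact permutation p of 0.33, the smallest possible.

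The total length under those peaks in each list did not overlap in value between the states. In place, peaks of both states did overlap, by Hnf4a. The share of other genes' windows whose lengths separate in this way is not given here. H3K27ac covered 3036 and 2525 bp in the asynchronous and 6129 and 5256 bp in the mitotic lists, with means of 2780 ± 361 and 5692 ± 617 bp (SD, n = 2 each). The difference was 2912 bp (exact permutation p = 0.33, the smallest that 2 against 2 allows; adjusted p = 1). Per 1000000 listed bases these were 56.2 and 50.2 against 155 and 140, with means of 53.2 ± 4.23 and 147 ± 11. Over the windows of all genes the covered share went the other way, from 3.05% and 2.86% to 2.23% and 2.13%. Asynchronous lists came from project EC-DG-3458 and mitotic ones from EC-DG-3514, so state and project cannot be told apart. Median peak widths were 787 and 764 bp against 754 and 890 bp.

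The genes did not share this difference. Gata6 was covered by 305 and 0 bp in the asynchronous and 2019 and 1228 bp in the mitotic lists. Hnf4a was covered by 0 and 702 bp against 2659 and 2331 bp. Gata4 was nearer to level, with 1022 and 1308 bp against 1451 and 1697 bp, and its asynchronous length takes in the edge of the kept domain just outside its window. Sox17 went from 343 and 515 bp to none in either mitotic list. Sox7 had 1366 bp in asynchronous 1 and 0 bp in the other 3 lists, and Foxa1 and Foxa2 had 0 bp in all 4. Without Hnf4a the lengths were 3036 and 1823 against 3470 and 2925 bp, which overlap, and the ratio of mitotic to asynchronous means went from 2.05 to 1.32. Leaving out any other gene left the groups apart, at ratios from 1.55 without Gata6 to 2.71 without Sox7.

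**Figure D4:**
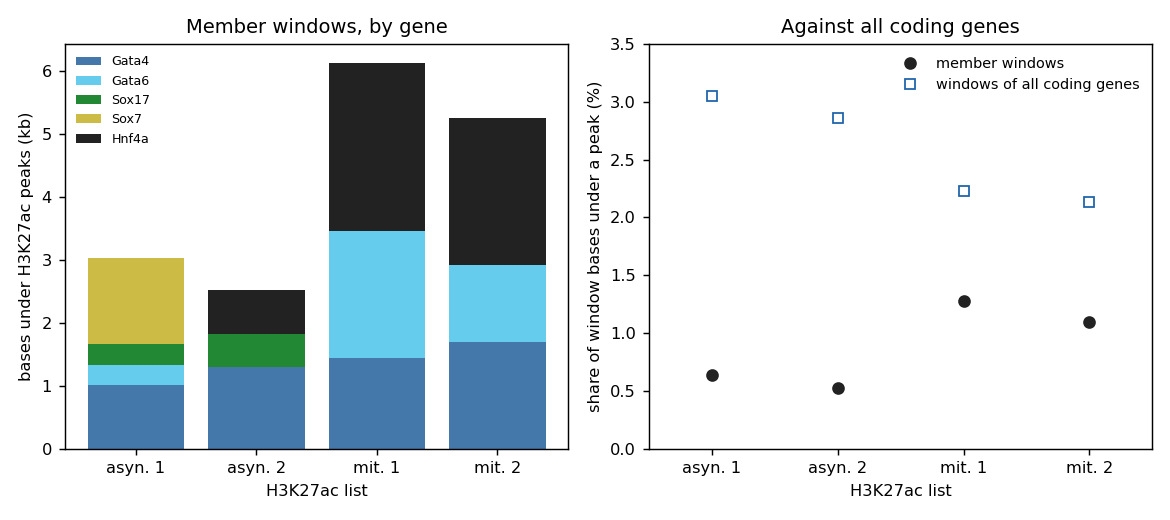
Left, bases under H3K27ac peaks in the windows (kb, stacked by gene) in each H3K27ac list; Foxa1 and Foxa2 had none. Right, the same as a percent of window bases (filled circles) with the windows of all protein-coding genes (open squares): the 7 genes go from 0.636% and 0.529% to 1.28% and 1.10% while all genes go from 3.05% and 2.86% to 2.23% and 2.13%.

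By class, 7 of 11 H3K27ac regions by the 7 genes came from a single list, against 33.6% of all H3K27ac regions. Of the others, 1 was lost (Gata4), 0 were kept, 2 were mitotic-only (Gata4 and Gata6) and 1 was in no class (Hnf4a). Over the genome 46.1% of the H3K27ac asynchronous set was kept and 39.4% lost. An asynchronous-set region lay by 1 of 7 genes, against 69.6% of all genes, and a kept one by 0 of 7, against 56.0%. A lost one lay by 1 of 7, against 37.9%. A mitotic-only region lay by 2 of 7 (28.6%), against 20.9%, a share not far from the background. Peaks in both mitotic lists lay by Gata4, Gata6 and Hnf4a, against 63.8% of all genes, and 2 of these 3 regions were mitotic-only, against 26.7% of the 21652 H3K27ac regions in both mitotic lists. The mitotic-only count was 2 with −log10 q of at least 5, but then by Gata4 and Hnf4a. It was 3 with lists of equal length and without asynchronous 2. It was 4 without mitotic 2, where a peak in mitotic 1 sufficed, which added further regions by Gata6. Without asynchronous 1 the lost count was 3 and the kept count 1, and without asynchronous 2 the lost count was 5. In both of these runs the remaining asynchronous list sufficed for the set. Gata4 had its mitotic-only region under every alternative run. Of the marker lists, feeder fibroblasts had a mitotic-only H3K27ac region by 0 of 7 genes, neural progenitors by Sox1 among 5 genes, and differentiated endoderm by Cubn among 7. Afp, Ttr, Apoa1, Dab2 and Lama1 of the last list had no mitotic H3K27ac peak. Amn of that list went the other way, with H3K27ac in 1 mitotic list and no asynchronous one. The part of other cells in the result was not tested.

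A list of 37 other endoderm genes was set beside them, with 15 naive pluripotency genes. In asynchronous cells a Klf4 region of the set lay by 24 of the 37 (64.9%) and by 15 of the 15 naive genes. A kept Klf4 region lay by 9 of 37 (24.3%) and by 12 of 15 (80.0%), and a lost one by 14 of 37 (37.8%). For H3K27ac the set reached 27 of 37 (73.0%), a kept region 19 of 37 (51.4%) and a mitotic-only region 8 of 37 (21.6%). Naive genes had a kept H3K27ac region in 14 of 15 cases (93.3%) and a mitotic-only one by Zfp42 alone. A lost H3K27ac region lay by 12 of 15 naive genes (80.0%), 19 of 37 (51.4%) and 1 of the 7 regulators (14.3%). The 7 regulators thus had the lowest kept shares of the 3 lists, 0 for either antibody, without a test of that difference. Of the 9 genes with a kept Klf4 region among the 37, 6 were inducing signals or their mediators. The other endoderm genes of that list therefore also had few kept Klf4 regions. The naive genes had the highest lost as well as the highest kept shares for both antibodies.

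The 37 genes were described in 3 sub-lists by role, without a test between them and with median gene spans of 64.5 kb (primitive and extraembryonic endoderm), 7.75 kb (definitive endoderm) and 32.2 kb (signals). The shares over all genes were 56.0% for a kept H3K27ac region, 21.9% for a kept Klf4 region and 20.9% for a mitotic-only H3K27ac region. All 8 inducing signals and their mediators, such as Fgf4, Nodal and Tdgf1, had a kept H3K27ac region, and 6 a kept Klf4 region. Of 15 primitive and extraembryonic endoderm genes 5 had a kept H3K27ac region and 4 a mitotic-only one, and of 14 definitive endoderm genes 6 and 1. A kept Klf4 region lay by only 2 of these 15 genes (Lama1 and Lamc1) and by 1 of the 14 (Eomes). The highest Klf4 folds among the 37 were by Nodal, a ligand of the Tgf-beta family, at chr10:61415693-61417036. There they were 22.1, 9.08 and 10.7 in asynchronous and 8.66, 6.74 and 11.4 in mitotic lists. Lamc1, a laminin chain, and Tdgf1, the Nodal co-receptor, followed, with highest asynchronous Klf4 folds of 16.2 and 13.4. For Oct4 they were Nodal (14.6), Foxh1 (6.69) and Otx2 (4.62), for Sox2 Grb2 (10.6), Otx2 (7.89) and Col4a1 (7.73), and for H3K27ac Tdgf1 (37.9), Fgf4 (33.6) and Lamc1 (27). The highest asynchronous folds of the 7 regulators were 6.85 for Klf4 by Sox7, 5.33 for Oct4 by Sox7 and 8.03 for H3K27ac by Gata4, over far fewer regions. The median of the highest asynchronous fold was taken over the regions that had an asynchronous peak. For Klf4 it was 4.75 by the regulators and 4.99 by the 37 genes, and for H3K27ac 4.15 and 5.88. Counting also regions without an asynchronous peak, the regulators had 9 Klf4 and 11 H3K27ac regions, and the 37 genes 74 and 156.

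**Figure D5:**
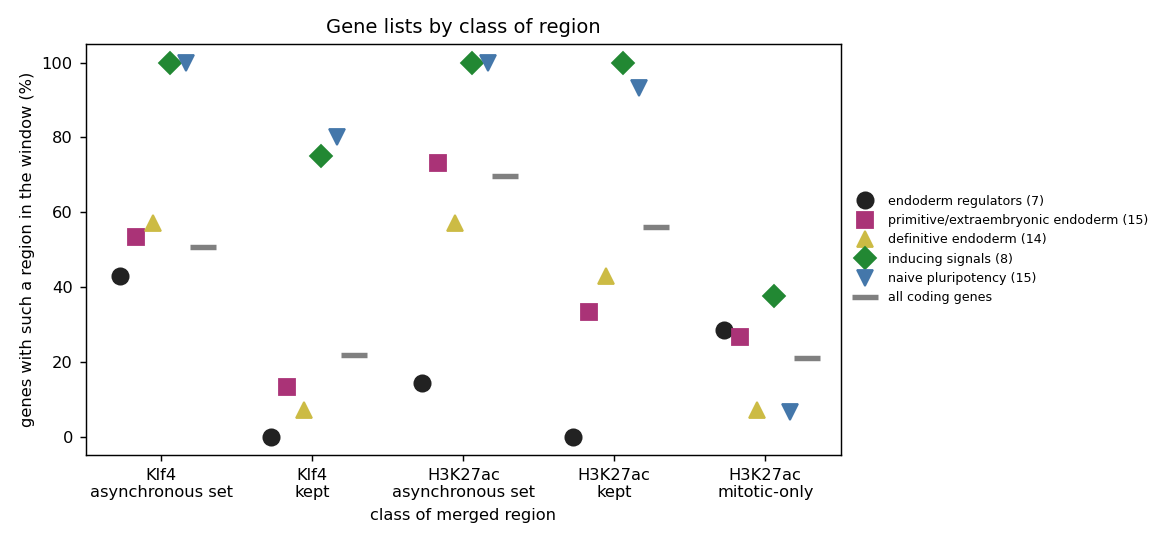
Percent of the genes of each list (symbols; list sizes in the key) with at least 1 region of each class in the window, and the same for all protein-coding genes (grey bars). The 7 endoderm regulators are at 0 for kept Klf4 and kept H3K27ac regions, where naive pluripotency genes are at 80.0% and 93.3%, and at 28.6% for mitotic-only H3K27ac.

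Distances to the nearest kept region differed among the 7 genes. The nearest kept H3K27ac region was 20.9 kb from Gata4, 34.2 kb from Hnf4a, 62.9 kb from Sox17, 83.3 kb from Sox7, 171 kb from Gata6, 310 kb from Foxa1 and 414 kb from Foxa2. The nearest kept Klf4 region was 20.9 kb from Gata4 and 43.4 kb from Hnf4a, and 305 kb or more from the other 5. With windows of 50 kb, therefore, Gata4 and Hnf4a each had a kept Klf4 and a kept H3K27ac region and the other 5 had none. Neither the distances nor the shares with windows of 50 kb are given here for all genes.

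Genes with the most similar pattern were found by the Pearson correlation, over the 16 lists, of log2(1 + highest fold in the window), as a description. They were Sgpp1 (1.00) and Bag2 (0.999) for Gata4, and Jph1 (0.981) and Ece1 (0.902) for Gata6. For Sox17 they were Cep295nl and 1700020L24Rik (1.00 each), and for Hnf4a Ccrl2 (0.998) and Cd177 (0.987). Sox7 had no gene as near, with 4921504E06Rik at 0.822 and 4930591A17Rik at 0.795. These patterns have a peak in only 4 to 7 lists and rest largely on which lists are empty. Foxa1 and Foxa2 had too few lists with a peak to be compared.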

How the data were processed

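ChIP-seq peak lists of 16 stem cell libraries were used, out of 24 samples. Per the submitters' processing notes, cutadapt 1.8.1, Bowtie2 2.2.5, deepTools 2.3.6 and MACS2 2.1.1 were used, with the mm10 genome. The lists are as the authors deposited them, 1 library each: every peak has a score, a fold (a ratio to local background) and −log10 p and q values, all of which are the authors' own. The score was not analysed further. Read depth was not given in the sources used here, so the list length is the only measure of yield. Coordinates are 1-based. Gene spans came from a RefSeq mm10 (GRCm38.p6) table without strand; distances run from the peak midpoint to the nearer gene end.

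Counts, merged regions and covered bases were computed in Python 3.11.15 (numpy 2.4.6, pandas 2.3.3; drawn with matplotlib 3.10.9) and checked on simulated lists. Libraries were compared by exact two-sided permutation of state labels, with Benjamini-Hochberg adjustment over 9 tests. A percentile ranks a peak within its own list. All 7 genes are named, with each region that is kept, mitotic-only or in the asynchronous set, and the single-list peaks are named beyond that rule, so that every member's peaks are accounted for. Of other endoderm genes, the rule named the 3 of highest asynchronous fold per antibody and, where 5 or fewer, those with a mitotic-only region. Other such H3K27ac genes were named after their values were seen. The genes, lists and tests were chosen with earlier results of these data known. Replicate numbers name libraries and do not pair them: the H3K27ac states come from different projects.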

Additional observations from a re-analysis of the deposited data

How the results depend on the processing

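The length covered by H3K27ac stayed higher in mitotic lists under every alternative run (3177 bp with −log10 q of at least 5, 4682 with equal lists, 4172 and 8707 with windows of 5 and 50 kb, and 2476 to 3348 without each library in turn). With the replicate number as a block the difference is 2912 bp by construction. Flipping the signs of the paired differences gave an exact p of 0.5, the smallest that this test allows. Replicate numbers do not pair these libraries, so this setting decides nothing. Other values moved, and the cause was not tested except where the rule itself sets it.

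With −log10 q of at least 5 the differences (mitotic minus asynchronous) were -0.33 Klf4 peaks (0.361 per 10000), 0.500 Oct4 peaks (2.32 per 10000) and 1.00 H3K27ac peaks, and 0 Klf4 lost and 0 Oct4 intermediate regions were left. With lists of equal length they were 0.33 Klf4 peaks (0.878 per 10000), 0 Oct4 peaks per 10000 and 3.00 H3K27ac peaks, with 0 Klf4 lost, 0 Klf4 intermediate and 0 Oct4 intermediate regions. Windows of 5 kb gave 0 Oct4 peaks per 10000, 0.500 H3K27ac peaks, 0 Oct4 intermediate and 0 H3K27ac lost regions. Windows of 50 kb gave 2 kept, 6 lost and 3 intermediate Klf4 regions, and 5 kept, 2 lost, 1 intermediate and 5 mitotic-only H3K27ac regions. Within project EC-EA-3702, where 1 list of each state sufficed and no region could be intermediate, there were 1 kept and 5 lost Klf4 regions. When any mitotic library sufficed there were 1 kept and 0 intermediate for Klf4 and the same for Oct4. When any base of a peak in the window sufficed, the H3K27ac difference was -0.105 per 10000.

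Without each library in turn, Klf4 differences ran from -5.67 to -3.17 peaks (-2.84 to -1.49 per 10000), lost regions from 0 to 4 and intermediate ones from 0 to 1. For Oct4 they ran from -1 to 1.00 peaks (-2.99 to 0.799 per 10000, the last without mitotic 1), with 0 to 1 kept, 0 to 1 lost and 0 to 1 mitotic-only regions. The 1 mitotic Oct4 list left sufficed in these runs, so no region could be intermediate. H3K27ac differences ran from -2 to 0 peaks (-0.0894 to 0.305 per 10000), with 0 to 1 kept, 1 to 5 lost and 2 to 4 mitotic-only regions. The single Oct4 and Sox2 asynchronous libraries could not be left out.

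Requiring a peak to cover 50% of the shorter of peak and region cannot change regions merged from those peaks. Merging only peaks that share 50% of the shorter, an alternative chosen after seeing the data, changed no class count. Over all alternatives 10 values changed sign. Unknown read depth limits every statement on a missing peak.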

Other observations

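Lamc1, a laminin chain of basement membranes, had a mitotic-only Oct4 region at chr1:153347839-153348082, with folds of 5.00 and 4.92 in mitotic 1 and 2. A mitotic-only Sox2 region, chr1:153347826-153348087, lay over the same place, with folds of 5.27 and 4.38. Sox2 had another by Lamc1 (chr1:153216541-153216829; 4.36 and 5.51) and 1 by Lama1 (chr17:67693908-67694232; 5.42 and 4.83). Among genes of the 37-gene list, these were the only mitotic-only regions of Oct4 and Sox2, and the 7 regulators had 0 of either. Over all genes 1.11% had a mitotic-only Oct4 region and 1.28% a Sox2 one.

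The widest mitotic-only H3K27ac region of the 37-gene list was by Cubn, the cubilin receptor of visceral endoderm, at chr2:13278231-13282277. Its folds of 14.7 and 16.3 were above those of the 2 mitotic-only regions by Gata4 and Gata6, whose highest was 6.40. Cubn and the genes that follow were chosen after their values were seen. Eomes, a T-box factor of definitive endoderm, had folds of 4.38 and 6.47 in a mitotic-only region, and Pdgfra, a receptor of primitive endoderm cells, a highest fold of 6.63. The others were by Col4a1, Col4a2, Fgfr1, Grb2 and Tdgf1, with folds from 3.75 to 7.78.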
